A study of Homo sapiens with 12 samples.

Results

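The 10 imprinted genes described here lie outside the imprinted cluster on the short arm of chromosome 11 and were followed in HEL leukemia cells that regrew after chemotherapy. The genes, MEG3, DLK1, PEG3, PEG10, SGCE, MEST, GRB10, NDN, SNRPN and PLAGL1, were taken by symbol from a table of 26481 genes. All 10 were in the table, and 5 of them (DLK1, SGCE, MEST, GRB10 and PLAGL1) were counted often enough to be among the 14164 genes tested. The study asked how a hypomethylating agent added to chemotherapy changes the cells that grow back. RNA was sequenced from 12 cultures of HEL 646C, a barcoded line of the human erythroleukemia line HEL, which is a single established acute myeloid leukemia cell line. Every culture carried a library of different barcodes, which mark clones, and the drugs were present for 72 to 74 hours, after which treated cells regrew for about 30 days. NT (n = 2) was cultured with DMSO (0.1 μM) and no drug, and Doxo (n = 3) received doxorubicin (1.8 μM). Doxo+Cyta (n = 3) received doxorubicin (1.8 μM) and cytarabine (6 μM), and Doxo+Cyta+DAC (n = 4) received both at these doses with decitabine (0.1 μM).

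An imprinted gene is expressed mainly from the copy inherited from one parent, because the other copy carries DNA methylation or repressive chromatin set in the germline. Doxorubicin and cytarabine damage DNA or block its synthesis, whereas decitabine is built into DNA and traps DNA methyltransferases, so that methylation is lost as cells divide. MEG3 is a long noncoding RNA of the maternal copy. DLK1, PEG3, PEG10, SGCE, MEST, NDN, SNRPN and PLAGL1 are known as paternally expressed genes, and the expressed copy of GRB10 depends on the tissue. Counts per gene do not tell the parental copies apart, and in RNA from whole cultures a smaller share of expressing cells and less RNA per cell cannot be told apart.

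Promoter sequence from RefSeq (GRCh38.p14, a window of 250 bases before and 50 bases after each start) was matched by symbol for 6 of the 10 genes, namely MEG3, MEST, GRB10, NDN, SNRPN and PLAGL1. The stretches before 7 of these starts are given here, 5′ to 3′ on the strand of the gene and without any base that GENCODE v44 places in an untranslated or coding region. They are shown because imprints are carried on CpG sites, for PLAGL1 at the start shared with the noncoding gene HYMAI and for GRB10 at the internal start, with the distal start of each for comparison, and because they set 3 genes whose level changed (PLAGL1, GRB10 and MEST) beside a pair that was at or near 0 (NDN and MEG3). Capitals mark each CG, the dinucleotide that is methylated in human DNA.
PLAGL1, start shared with HYMAI, chr6:144008431-144008509 (- strand): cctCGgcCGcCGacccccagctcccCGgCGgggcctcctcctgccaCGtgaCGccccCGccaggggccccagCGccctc
PLAGL1, distal start, chr6:144064600-144064849 (- strand): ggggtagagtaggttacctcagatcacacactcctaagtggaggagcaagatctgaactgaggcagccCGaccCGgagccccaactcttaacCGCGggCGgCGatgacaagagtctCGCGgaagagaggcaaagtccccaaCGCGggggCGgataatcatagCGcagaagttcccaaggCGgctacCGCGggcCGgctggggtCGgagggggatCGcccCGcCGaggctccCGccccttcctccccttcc
GRB10, distal start, chr7:50793463-50793703 (- strand): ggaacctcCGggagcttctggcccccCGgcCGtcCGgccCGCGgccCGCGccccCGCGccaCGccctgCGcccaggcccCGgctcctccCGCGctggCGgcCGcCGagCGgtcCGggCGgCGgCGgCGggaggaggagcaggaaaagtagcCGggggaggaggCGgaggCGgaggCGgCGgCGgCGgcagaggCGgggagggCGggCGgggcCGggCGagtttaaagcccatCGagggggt
GRB10, internal start, chr7:50782897-50783146 (- strand): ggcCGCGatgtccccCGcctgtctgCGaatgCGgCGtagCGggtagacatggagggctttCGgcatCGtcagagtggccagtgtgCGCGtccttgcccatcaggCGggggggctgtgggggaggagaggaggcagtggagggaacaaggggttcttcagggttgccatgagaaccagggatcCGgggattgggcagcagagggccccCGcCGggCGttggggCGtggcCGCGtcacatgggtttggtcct
MEST, chr7:130491808-130492057 (+ strand): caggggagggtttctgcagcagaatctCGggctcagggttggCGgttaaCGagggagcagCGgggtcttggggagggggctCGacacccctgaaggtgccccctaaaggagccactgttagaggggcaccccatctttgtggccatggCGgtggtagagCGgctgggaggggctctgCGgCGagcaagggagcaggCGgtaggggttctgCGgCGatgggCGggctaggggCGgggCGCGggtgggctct
NDN, chr15:23687306-23687555 (- strand): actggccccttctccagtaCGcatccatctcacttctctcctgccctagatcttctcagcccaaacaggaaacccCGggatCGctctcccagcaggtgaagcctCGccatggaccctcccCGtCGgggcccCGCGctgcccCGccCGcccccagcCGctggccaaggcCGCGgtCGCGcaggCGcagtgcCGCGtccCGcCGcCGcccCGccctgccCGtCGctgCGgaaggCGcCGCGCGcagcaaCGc
MEG3, chr14:100825858-100826107 (+ strand): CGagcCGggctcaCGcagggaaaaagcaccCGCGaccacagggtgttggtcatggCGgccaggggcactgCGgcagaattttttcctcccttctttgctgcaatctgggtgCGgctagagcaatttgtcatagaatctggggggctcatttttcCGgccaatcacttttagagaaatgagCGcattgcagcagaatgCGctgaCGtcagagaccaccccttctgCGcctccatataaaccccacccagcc
The 300-base window at the PLAGL1 start that is shared with HYMAI held 39 CG, and the window at the most distal PLAGL1 start held 31. Of the shared window only the 79 bases farthest from the start, with 9 CG, are printed, because annotated bases follow them. The start is shared in RefSeq, but in the annotation used for counting HYMAI reaches chr6:144008730 and covers the printed bases. The 250 bases printed for the distal start hold 21 CG, so CG in the printed stretches cannot be compared directly. For GRB10 the distal window shown held 44 CG and the internal one 24, within a range of 3 to 49 over its 5 windows. The MEST window shown held 22 CG, within 13 to 25 over 5 windows, the MEG3 window shown held 19, within 17 to 19 over 3 windows, and the single NDN window held 35. Over all 35114 promoter windows of this length the median was 14 CG, with quartiles of 4 and 28. The letters TGCCGC, which the imprint-protecting factor ZFP57 is known to bind when methylated, were searched on both strands and were found in 16.7% of all windows. They were present in 1 of 5 PLAGL1 windows, 1 of 5 GRB10 windows, 4 of 5 MEST windows, 3 of 3 MEG3 windows, 2 of 4 SNRPN windows and the 1 NDN window. Windows of a gene can overlap and hold the same site. The 3 MEG3 starts lie within 24 bases, and some MEST windows overlap, so these fractions do not count separate sites. The 5 PLAGL1 starts spanned 103187 bases and held 2 to 39 CG, and the counts per gene do not resolve which start was used.

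The libraries held 12763582 to 19106235 counted fragments. A limit of 3 counts, taken as the lowest level a library could show, corresponded to 0.157 to 0.235 counts per 1000000 counted fragments. Gene levels are given as CPM, counts per 1000000 on TMM-scaled totals of the tested genes, which is a slightly different scale. The 10 erythroid and megakaryocytic markers expected of HEL cells were all present, with a summed level of 9068 to 10133 CPM in NT and 6930 to 9491 CPM in Doxo+Cyta+DAC. Of these 10 markers, 7 were lower in Doxo+Cyta+DAC than in Doxo+Cyta, 5 lower than in Doxo and 3 lower than in NT. At the same adjusted p under 0.05, 30.5%, 30.4% and 23.7% of all tested genes were lower, in that order. The part of these markers in the differences of the imprinted genes was not tested. The 12 markers of other lineages summed to 2.34 to 8.34 CPM, and 3 of them were tested. MS4A1, which marks B cells, was at 0 in all libraries, but CD79A, another B-cell marker of the list, was present. CD79A had group means of 2.92 to 4.53 CPM without decitabine and of 1.37 CPM after the combination with it. CD79A was lower after that combination than in every other group at an adjusted p under 0.05, and no tested marker of the list was higher. The libraries Doxo 4 and Doxo+Cyta 20 stood apart from the others of their groups, with root-mean-square distances of 0.498 and 0.544 on the log2 CPM scale against 0.294 to 0.435 for the remaining 10 libraries. Counts of called genes among the 10 imprinted genes, the other imprinted genes and the factors that keep imprints are given with and without both.

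The 10 genes fell into 5 that were expressed in every library and 5 that were at or near 0. Set per length of exon, GRB10 was the highest with a mean of 22.5 CPM per kb over the 12 libraries, above 77.0% of the tested genes. PLAGL1 followed with 14.98 CPM per kb and MEST with 14.4 CPM per kb, above 68.4% and 67.3% of the tested genes. DLK1 reached 4.12 CPM per kb, above 39.8% of the tested genes, and SGCE only 0.560 CPM per kb, above 12.8% of them. NDN and SNRPN had no count in any of the 12 libraries, PEG3 had 1 count in all, MEG3 had 3 and PEG10 had 6.

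**Figure D1:**
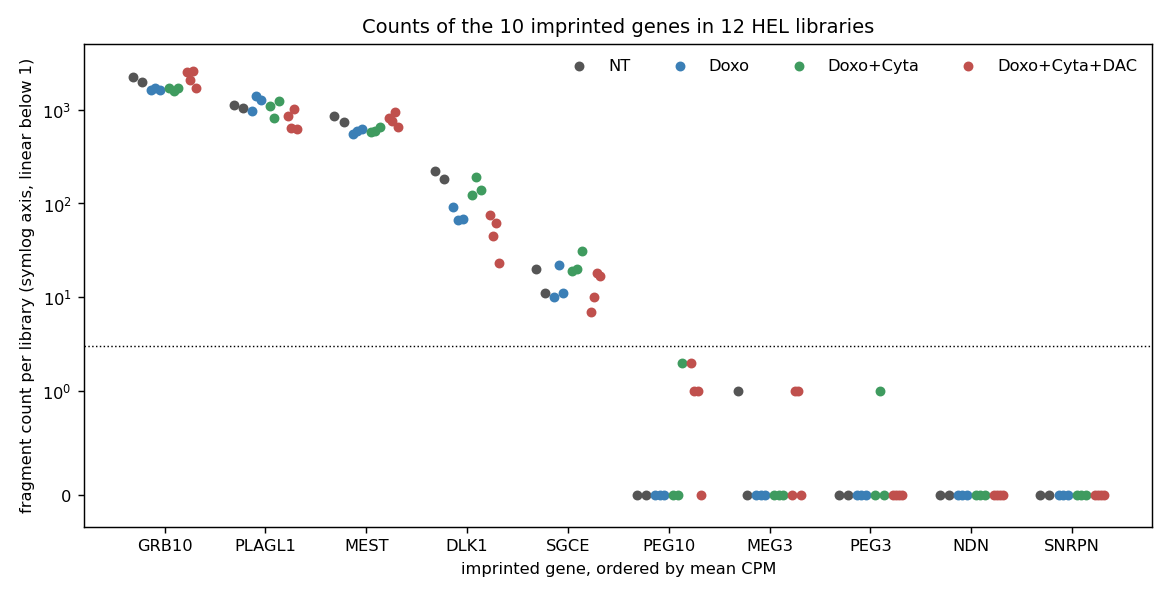
Fragment counts of the 10 imprinted genes in each of the 12 libraries (points, coloured by group) on a symlog axis that is linear below 1. The dotted line marks 3 counts. GRB10 lay at 1574 to 2602 counts in all libraries, whereas PEG10, MEG3, PEG3, NDN and SNRPN did not pass 2 counts in any library.

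DLK1 (chr14:100726865-100735130, + strand), a membrane-bound ligand related to Notch ligands that is known to hold back differentiation, changed most among the 5 expressed genes. Its level was 11.3 and 10.8 CPM in the NT libraries, from 220 and 182 counts. In Doxo it was 6.42, 3.90 and 4.36 CPM, and in Doxo+Cyta 7.61, 12.7 and 8.56 CPM. In Doxo+Cyta+DAC it was 4.66, 3.10, 3.25 and 1.82 CPM, from 76, 45, 62 and 23 counts. Every Doxo+Cyta+DAC library was thus below every NT and every Doxo+Cyta library, whereas the Doxo and Doxo+Cyta+DAC ranges overlapped. Relative to NT, DLK1 fell by 1.77 ± 0.29 (SE) on the log2 scale in Doxo+Cyta+DAC (adjusted p = 0.00027, edgeR's quasi-likelihood test with Benjamini-Hochberg adjustment over all tested genes), a level 0.293 times that of NT. Relative to Doxo+Cyta, it fell by 1.57 ± 0.27 (adjusted p = 0.0002). Both calls held in all 18 alternative settings, which changed the scaling, filter, tool or samples in the fit, with log2 fold changes from -2.001 to -1.59 against NT and from -1.80 to -1.32 against Doxo+Cyta.

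DLK1 was also lower in Doxo than in NT, by 1.18 ± 0.31 on the log2 scale (adjusted p = 0.027). That call was lost when either NT library, Doxo 5 or Doxo 6 was left out, with adjusted p-values of 0.0982 to 0.172, and held at -1.46 (adjusted p = 0.0017) without Doxo 4 and Doxo+Cyta 20. The ordering of mean levels was NT (11.1 ± 0.34 CPM, SD), Doxo+Cyta (9.63 ± 2.73), Doxo (4.89 ± 1.34) and Doxo+Cyta+DAC (3.21 ± 1.16). No neighbours in this ordering differed by the test. Doxo+Cyta and NT differed by -0.20 ± 0.30 (adjusted p = 0.75), and Doxo+Cyta+DAC and Doxo by -0.59 ± 0.28 (adjusted p = 0.088). The second of these passed the threshold without Doxo+Cyta+DAC 30 (-0.82, adjusted p = 0.026) and was -0.34 (adjusted p = 0.27) without both libraries that stood apart. Between Doxo+Cyta and Doxo the groups did not overlap, and the difference of 0.98 ± 0.29 (adjusted p = 0.078) passed the threshold without the filter on low counts (0.042), with DESeq2 (0.020), without Doxo 4 (0.036) and without both libraries that stood apart (0.0485). Doxo 4 and Doxo+Cyta 20 were each the highest DLK1 library of their group.

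MEG3 (chr14:100826108-100861023, + strand), a noncoding RNA known for growth-restraining activity, lies beside DLK1 on chromosome 14 and is expressed from the other parental copy. It had 1 count in NT 1, 1 count in Doxo+Cyta+DAC 31, 1 count in Doxo+Cyta+DAC 32 and none in the other 9 libraries. Every library was thus at or under the limit of 3 counts, and no fold change was computed. RTL1, a gene of the same cluster on the opposite strand to MEG3, had 7 to 64 counts in every library. RTL1 shared 11.4% of its exon bases with microRNA genes that are read from the MEG3 strand, where a fragment is counted for neither gene. Counting ignored strand, so on the other exon bases RTL1 fragments and fragments of transcripts from the MEG3 strand cannot be told apart.

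PLAGL1 (chr6:143940300-144064599, - strand), a zinc finger transcription factor known to arrest the cell cycle, was lower after the combination with decitabine than after either chemotherapy. Its level was 57.2 and 61.3 CPM in NT, and 67.1, 80.5 and 80.0 CPM in Doxo. In Doxo+Cyta it was 68.1, 54.5 and 76.0 CPM, and in Doxo+Cyta+DAC 52.2, 44.3, 52.7 and 48.8 CPM. All Doxo+Cyta+DAC libraries were below all libraries of the other 3 groups, although the closest, Doxo+Cyta 20, was only slightly above. PLAGL1 fell by 0.62 ± 0.12 on the log2 scale against Doxo (adjusted p = 0.00071) and by 0.42 ± 0.12 against Doxo+Cyta (adjusted p = 0.0094). Against Doxo+Cyta the call was lost without Doxo+Cyta 22 (adjusted p = 0.0528), and without both libraries that stood apart the difference was -0.54 (adjusted p = 0.0001).

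Against NT, PLAGL1 did not pass the threshold in Doxo+Cyta+DAC (-0.26 ± 0.14, adjusted p = 0.14), although the groups did not overlap. It passed in 4 of 18 alternative settings, with adjusted p-values of 0.013 to 0.047. The Doxo libraries were all above NT, with a log2 fold change of 0.36 ± 0.15 (adjusted p = 0.13) that passed the threshold only without both libraries that stood apart (0.41, adjusted p = 0.0076). Mean PLAGL1 levels thus ran from Doxo (75.9 ± 7.60 CPM, SD) over Doxo+Cyta (66.2 ± 10.9) and NT (59.3 ± 2.93) to Doxo+Cyta+DAC (49.5 ± 3.89), and no neighbours in that series differed by the test. PLAGL1 and HYMAI overlap, and 7.91% of PLAGL1 exon bases were shared with HYMAI, where a fragment is counted for neither gene.

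GRB10 (chr7:50590063-50793462, - strand), an adaptor protein that binds insulin and growth factor receptors and dampens their signal, was the most abundant of the 10 genes. It measured 115 and 116 CPM in NT, 113, 98.3 and 102 CPM in Doxo, and 105, 105 and 104 CPM in Doxo+Cyta. In Doxo+Cyta+DAC it measured 152, 142, 137 and 133 CPM, and each of these 4 libraries lay above all 8 others. GRB10 rose by 0.43 ± 0.089 on the log2 scale both against Doxo (adjusted p = 0.00088) and against Doxo+Cyta (adjusted p = 0.00093), which is a 1.35-fold and a 1.34-fold higher level. Both calls held in all 18 alternative settings. Against NT the rise was 0.29 ± 0.10 (adjusted p = 0.03), and this call was lost in 9 of 18 settings, among them upper-quartile scaling (0.20, adjusted p = 0.13), no filter on low counts (0.25, adjusted p = 0.13) and leaving out either NT library. Doxo and Doxo+Cyta were indistinguishable in this measure, at 0.01 ± 0.095 (adjusted p = 0.98), and each lay 0.14 below NT on the log2 scale without passing the threshold.

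MEST (chr7:130486175-130506297, + strand), a predicted hydrolase of mesoderm known to promote growth, followed the same ordering of groups as GRB10. Its level was 43.8 and 44.4 CPM in NT, 38.8, 34.1 and 39.1 CPM in Doxo, and 36.0, 39.7 and 39.8 CPM in Doxo+Cyta. The Doxo+Cyta+DAC libraries stood at 49.98, 52.2, 49.3 and 52.3 CPM, above all others. MEST rose by 0.45 ± 0.097 on the log2 scale against Doxo (adjusted p = 0.0013) and by 0.40 ± 0.097 against Doxo+Cyta (adjusted p = 0.0026), and both calls held in all 18 alternative settings. Against NT the difference of 0.21 ± 0.11 did not pass the threshold (adjusted p = 0.13), nor in any alternative setting. The Doxo and Doxo+Cyta libraries were all below both NT libraries, by 0.24 ± 0.11 (adjusted p = 0.19) and 0.20 ± 0.11 (adjusted p = 0.36).

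**Figure D2:**
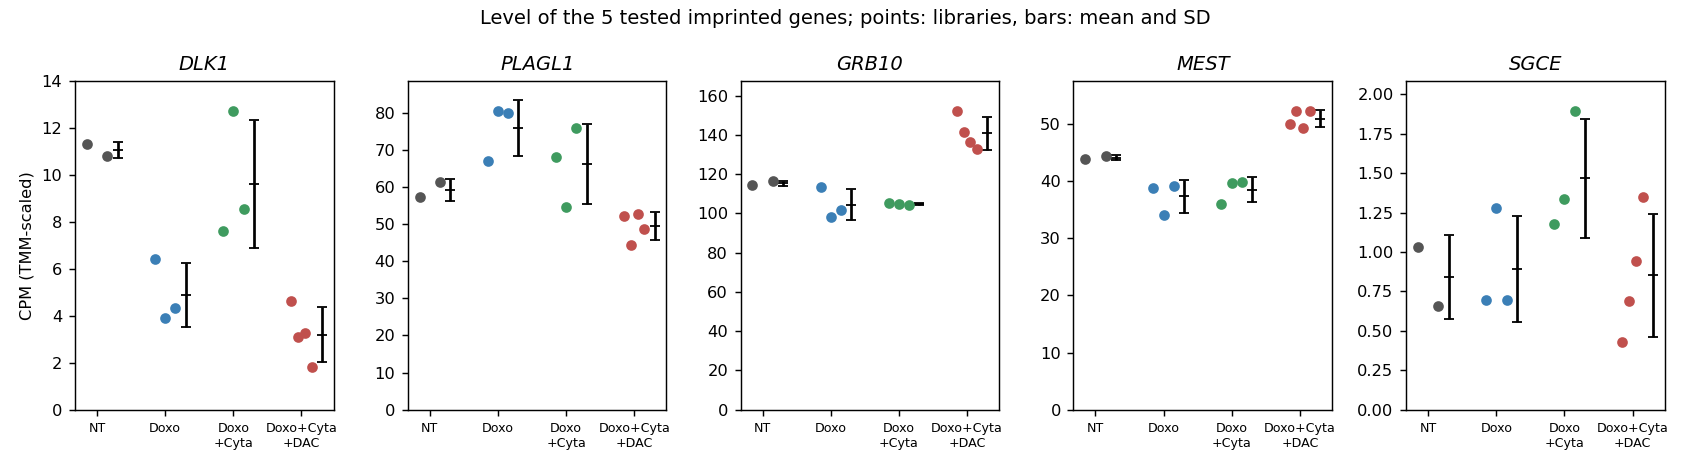
TMM-scaled CPM of the 5 tested imprinted genes by group, with 1 point per library and the group mean with SD beside the points. The Doxo+Cyta+DAC libraries are the lowest of all for PLAGL1 and the highest of all for GRB10 and MEST, DLK1 is below NT in both Doxo and Doxo+Cyta+DAC, and SGCE overlaps in all but the NT to Doxo+Cyta comparison.

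SGCE and PEG10 are divergent neighbours on chromosome 7. SGCE (chr7:94585224-94656209, - strand) encodes epsilon-sarcoglycan, a membrane protein mutated in myoclonus dystonia, and PEG10 (chr7:94656325-94669694, + strand) is a gene derived from a retrotransposon. SGCE had 20 and 11 counts in NT, 10, 22 and 11 in Doxo, 19, 20 and 31 in Doxo+Cyta, and 7, 10, 18 and 17 in Doxo+Cyta+DAC. The highest mean was in Doxo+Cyta, at 1.47 ± 0.38 CPM (SD), against 0.842 to 0.891 CPM in the other groups. SGCE did not pass the threshold in any comparison, and the widest difference, -0.80 ± 0.38 between Doxo+Cyta+DAC and Doxo+Cyta (adjusted p = 0.081), passed only when Doxo+Cyta+DAC 33 was left out (-1.07, adjusted p = 0.031). Its 7 to 31 counts per library limit the precision of these values. PEG10 had 2 counts in Doxo+Cyta 22, 2 in Doxo+Cyta+DAC 30, 1 in Doxo+Cyta+DAC 31, 1 in Doxo+Cyta+DAC 32 and none in the other 8 libraries. The 2 genes share a control region, and only SGCE was above the limit of 3 counts.

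NDN (chr15:23685407-23687303, - strand), a growth suppressor of neurons, and SNRPN (chr15:24823647-24978582, + strand), a splicing protein, belong to the cluster that is lost in Prader-Willi syndrome. Both had 0 counts in all 12 libraries, but the zeros differ in what could be counted. NDN shares no exon base with another gene, and 0 counts allow it a level of up to 0.157 to 0.235 CPM in a library. For SNRPN such a limit holds only for the exon bases that it does not share. Of its 1992 exon bases 66.6% are shared with SNURF, which is read from the same transcript, and fragments on these bases were left out of both genes. SNURF was also at 0 in all 12 libraries. Other transcripts of this cluster were present in every library: IPW with 36 to 115 counts, MKRN3 with 37 to 75 and PWAR5 with 6 to 27.

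PEG3 (chr19:56810077-56840726, - strand), a zinc finger protein of placenta and brain, had 1 count in Doxo+Cyta 20 and none in the other 11 libraries. Of its exon bases 24.9% were shared with PEG3-AS1 and ZIM2, and ZIM2 was at 0 in all libraries.

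In each comparison, the imprinted genes called at an adjusted p under 0.05 were read against the share of all 14164 tested genes called. In Doxo against NT, 1 of 5 tested members was called, DLK1 as lower, against 10.7% of all tested genes in either direction (6.06% higher and 4.63% lower). In Doxo+Cyta against NT none of the 5 was called, against 1.46%, with 0 by DESeq2 and 0 under an unadjusted p of 0.05. In Doxo+Cyta+DAC against NT 2 were called, GRB10 higher and DLK1 lower, against 48.7% (24.9% higher and 23.7% lower). In Doxo+Cyta against Doxo none was called by edgeR, against 3.4%, with DLK1 alone under an unadjusted p of 0.05 and called by DESeq2. In Doxo+Cyta+DAC against Doxo 3 were called, GRB10 and MEST higher and PLAGL1 lower, against 59.5% (29.1% higher and 30.4% lower). In Doxo+Cyta+DAC against Doxo+Cyta 4 were called, GRB10 and MEST higher and DLK1 and PLAGL1 lower, against 60.3% (29.8% higher and 30.5% lower). Calls among the imprinted genes were thus most frequent in the comparisons where most genes of the table were called, and a count over 5 genes shows nothing particular to them. The comparisons share groups, so they do not stand for separate evidence. Without both libraries that stood apart, the counts were 4, 0, 3, 1, 3 and 4 in the same order, against 37.4%, 14.5%, 60.7%, 8.96%, 67.9% and 66.8% of the 14078 genes tested in that fit, and in Doxo against NT MEST, GRB10 and PLAGL1 were added to DLK1.

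The number of tested members whose libraries did not overlap between groups was 4 of 5 in Doxo against NT, where 49% of all tested genes did not overlap, and 3 in Doxo+Cyta against NT (40.6%). It was 4 in Doxo+Cyta+DAC against NT (67.1%), 1 in Doxo+Cyta against Doxo (21%), 3 in Doxo+Cyta+DAC against Doxo (60%) and 4 in Doxo+Cyta+DAC against Doxo+Cyta (57.2%). In size, the absolute log2 fold change of DLK1 after the combination with decitabine was above that of 94.1% of tested genes against NT, of 89.7% against Doxo+Cyta and of 51.4% against Doxo. The changes of GRB10, MEST and PLAGL1 against Doxo+Cyta were above those of 38.2%, 36.3% and 37.6% of tested genes.

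**Figure D3:**
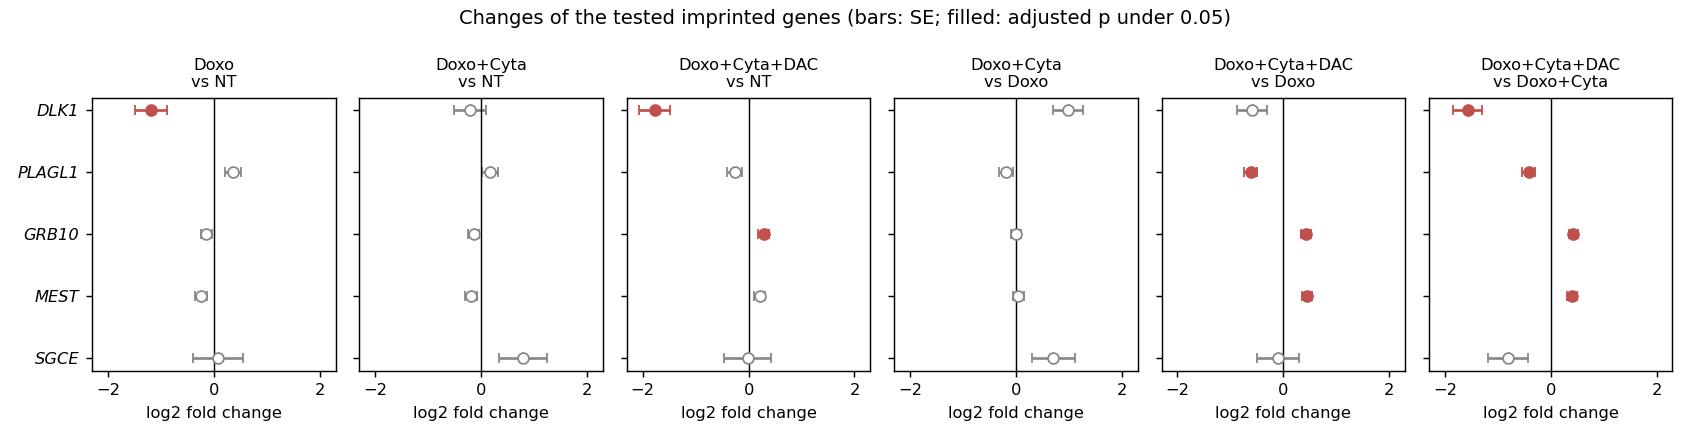
Fitted log2 fold change (points) with its standard error (bars) of the 5 tested imprinted genes in the 6 comparisons, first group over second, from edgeR's quasi-likelihood fit. Filled points passed an adjusted p of 0.05: DLK1 in 3 comparisons, GRB10 in 3, MEST in 2, PLAGL1 in 2 and SGCE in none.

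Genes near DLK1, PLAGL1 and MEST were called in both directions, as were genes over the whole table. In Doxo+Cyta+DAC against Doxo+Cyta, 60.3% of all tested genes were called, 29.8% higher and 30.5% lower. Counts over so few neighbours show nothing particular to these sites. Between Doxo+Cyta+DAC and Doxo+Cyta, 3 of the 6 tested genes within 500 kb of DLK1 were called: SLC25A29, a mitochondrial carrier, at -1.96 ± 0.14, BEGAIN, a postsynaptic protein that is imprinted in some mammals, at -0.80 ± 0.21, and WARS, the tryptophan tRNA ligase, at 1.30 ± 0.18. RTL1, 145525 bases from DLK1, was not called (0.31 ± 0.54, adjusted p = 0.65). Around PLAGL1, 4 of 9 tested genes were higher and 2 lower, among them LTV1, a ribosome assembly factor, at 1.64 ± 0.19 and STX11, a syntaxin of blood cells, at -2.04 ± 0.18. Around MEST, 3 of 8 were higher and 4 lower, and its overlapping neighbour COPG2, a coat protein subunit on the opposite strand, was at -0.51 ± 0.097 while MEST rose. Around GRB10, FIGNL1, a DNA repair factor, rose by 1.55 ± 0.19 on the log2 scale and IKZF1, a lymphoid transcription factor, did not pass the threshold (0.20 ± 0.14, adjusted p = 0.21). Neither CASD1 nor PPP1R9A, the tested genes around SGCE, was called in this comparison. Against NT, PPP1R9A was lower in Doxo+Cyta+DAC (-0.71 ± 0.24, adjusted p = 0.024), where 23.7% of all tested genes were called lower, and CASD1 was not called.

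The genes most like each member across the 12 libraries were found by the root-mean-square difference of mean-centred log2 CPM. For DLK1 they were RASIP1 (0.257), CRACR2B (0.258) and LOC100288152 (0.298), against a median of 0.889 over all 14163 other tested genes. MEST was most like HPRT1 (0.0539), PPHLN1 (0.0689) and SDHC (0.0734), and GRB10 most like RBBP7 (0.0575), EZH2 (0.0592) and AP3D1 (0.0605), against medians of 0.423 and 0.421. PLAGL1 was most like EDC3 (0.0711), SEC23B (0.0867) and ALKBH5 (0.0927), against a median of 0.473. For SGCE the smallest difference was 0.312 (C16orf70), with ZNF57 (0.338) and SEMA7A (0.343) next, against a median of 0.637. All these values share the same libraries and the same groups.

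Of 47 other imprinted genes outside chromosome 11p15, 44 were in the table, 23 were tested and 11 were at 0 in every library. Between Doxo+Cyta+DAC and Doxo+Cyta 6 of the 23 were higher and 4 lower, beside 60.3% of all tested genes called, with a median log2 fold change of 0.13 against 0.00025 over all tested genes. Against NT 4 were higher and 3 lower (48.7% of all tested genes called), and against Doxo 5 and 5 (59.5%). The count against NT fell from 7 to 2 without NT 1 and to 3 without NT 2. Only INPP5F was called in Doxo against NT (0.49 ± 0.14, adjusted p = 0.046), and none in Doxo+Cyta against NT or against Doxo by edgeR, where 3 and 4 had an unadjusted p under 0.05 and DESeq2 called 0 and 1. In Doxo against NT the call was not made when NT 1, NT 2, Doxo 5, Doxo 6, Doxo+Cyta 22 or any of Doxo+Cyta+DAC 30, 32 and 33 was left out, since no gene of the list was then called, and 3 genes were called without Doxo 4 and 3 without Doxo+Cyta 20. Without both libraries that stood apart, the count in Doxo against NT was 8 (4 higher and 4 lower), beside 37.4% of all tested genes. It was 1 in Doxo+Cyta against NT (14.5%) and 1 in Doxo+Cyta against Doxo (8.96%). In the same fit 10 were called in Doxo+Cyta+DAC against NT (60.7%), 13 against Doxo (67.9%) and 15 against Doxo+Cyta (66.8%).

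Of the called genes 4 changed at least 2-fold against Doxo+Cyta or NT. MCTS2P, an intronless copy of MCTS1 inside an intron of HM13, was at 2.41, 3.07 and 3.06 CPM in Doxo+Cyta and at 8.27, 7.50, 10.2 and 8.47 CPM in Doxo+Cyta+DAC, a 3.03-fold higher level (adjusted p = 3.3e-05). Its source gene MCTS1, which could exchange reads with it, was not called (-0.10 ± 0.14, adjusted p = 0.55). HM13 lies on the same strand and had 1424 to 3957 counts per library. Unspliced HM13 fragments and MCTS2P fragments cannot be told apart. L3MBTL1, a chromatin reader deleted in some myeloid malignancies, fell by 1.38 ± 0.17 on the log2 scale against Doxo+Cyta (adjusted p = 1.2e-05) and by 1.45 ± 0.19 against NT (adjusted p = 4.2e-05). HYMAI, which shares a RefSeq start with PLAGL1, was higher by 1.52 ± 0.63 (adjusted p = 0.049). It had 6, 0 and 7 counts in Doxo+Cyta and 12, 4, 20 and 14 in Doxo+Cyta+DAC. That call was lost in 14 of 18 settings, and the libraries overlapped. HYMAI lies inside PLAGL1 on the same strand, so HYMAI fragments and unspliced PLAGL1 fragments cannot be told apart. COPG2IT1, an intronic transcript of COPG2 near MEST, fell by 1.08 ± 0.43 (adjusted p = 0.041), and its call was lost without Doxo+Cyta 19, the library with 85 counts, where the log2 fold change was -0.50 (adjusted p = 0.34). The call was also lost without Doxo+Cyta+DAC 32 or 33, and when the fit held only the groups compared (adjusted p = 0.067). COPG2IT1 lies inside COPG2 on the opposite strand, and COPG2 also fell in this comparison (-0.51 ± 0.097, adjusted p = 0.00043). Counting ignored strand, so COPG2IT1 fragments and unspliced COPG2 fragments cannot be told apart.

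Of 12 factors that keep methylation or silencing at imprinted sites, all were in the table and 10 were tested. Between Doxo+Cyta+DAC and Doxo+Cyta 9 of 10 were called, 6 higher and 3 lower, beside 60.3% of all tested genes called. Against NT 6 were called (48.7%) and against Doxo 7 (59.5%), while Doxo against NT had 1, DNMT1 as lower (10.7%), and Doxo+Cyta had none against NT or Doxo by edgeR or DESeq2, with 2 under an unadjusted p of 0.05 in each. Without both libraries that stood apart 9 factors were tested. Against Doxo+Cyta 8 were called, 6 higher and 2 lower, beside 66.8% of all tested genes. Against NT 8 were called (60.7%) and against Doxo 7 (67.9%). In that fit 6 were called in Doxo against NT (37.4%), 2 in Doxo+Cyta against NT (14.5%) and 3 in Doxo+Cyta against Doxo (8.96%). UHRF1, which guides DNMT1 to newly copied DNA, was at 24.6, 35.4 and 24.99 CPM in Doxo+Cyta and at 142, 145, 141 and 125 CPM in Doxo+Cyta+DAC, a log2 fold change of 2.29 ± 0.27 (adjusted p = 7.2e-06). DNMT1, the maintenance methyltransferase that decitabine traps, rose by 1.06 ± 0.16 on the log2 scale (adjusted p = 5.3e-05). CTCF, an insulator protein, rose by 0.77 ± 0.11, and ZNF445, a zinc finger protein that guards imprints, by 0.75 ± 0.16. SMCHD1, a chromatin protein of silenced clusters, rose by 0.49 ± 0.17 and TRIM28, the corepressor that zinc finger proteins recruit, by 0.45 ± 0.11. SETDB1, the histone methyltransferase recruited by TRIM28, fell by 1.01 ± 0.12 (adjusted p = 6.1e-06). NLRP7, an oocyte factor, fell by 0.91 ± 0.37 (adjusted p = 0.048) from 4 to 13 counts, a call lost in 11 of the 14 settings that gave a value, and ARID4A, a chromatin binder, fell by 0.56 ± 0.18 and was lost without Doxo+Cyta 19 or 22 (adjusted p = 0.062 in each). ZFP57 had at most 2 counts in any library and DPPA3 at most 3, so neither was tested.

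**Figure D4:**
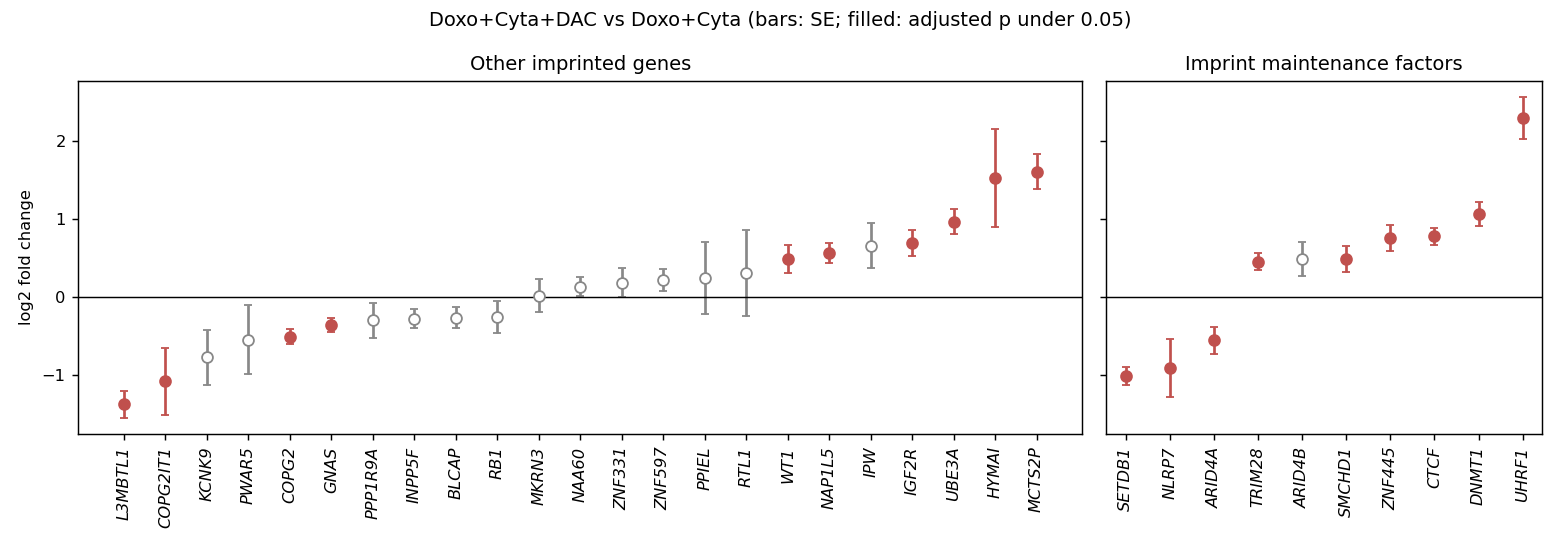
Log2 fold change in Doxo+Cyta+DAC against Doxo+Cyta of the 23 tested other imprinted genes (left) and the 10 tested imprint maintenance factors (right), with standard errors. Filled points passed an adjusted p of 0.05, and UHRF1 at 2.29 is the highest of both panels.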

How the data were processed

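RNA of 12 HEL cultures was sequenced as paired-end TruSeq libraries. The authors trimmed reads, aligned them to GRCh38 with Bowtie2 2.2.8, an aligner without spliced alignment, and counted fragments per gene with featureCounts 1.6.0 without regard to strand, so the deposited values are raw counts. By default featureCounts leaves out fragments that overlap several genes. The deposited length column, the summed exon bases of each gene, was used here for CPM per kb. The table lists 26485 genes, of which 4 have a missing value and were dropped, and 4 further names had been changed to dates by a spreadsheet. The series text describes 3 untreated replicates, and 2 were analysed here.

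Samples were grouped by their labels, which name no batch and no shared replicate number. Counts were fitted with edgeR 4.0.16 in R 4.3.3 (TMM scaling, filterByExpr, quasi-likelihood test, two-sided, all 12 samples in 1 fit), and p-values were adjusted by Benjamini-Hochberg within each of the 6 comparisons over the 14164 genes that passed the filter. A gene was called at an adjusted p under 0.05. P-values set a difference between groups against the spread between these cultures, which may be partly technical. That spread was estimated over all groups in 1 fit, so comparisons with the 2 NT libraries also rest on the spread of the treated cultures. Alternatives were DESeq2 1.42.0, RLE and upper-quartile scaling, no filter, only the groups compared, each library left out in turn and, chosen after seeing the data, both libraries that stood apart left out, which makes 18. Replicate libraries differed by more than counting noise, and limits of 3 counts cover counting error only.

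The genes and lists were chosen with earlier results of these data known. All 10 were reported. Other imprinted genes were named when called with at least a 2-fold change in Doxo+Cyta+DAC against Doxo+Cyta or NT (at most 8), maintenance factors when called in Doxo+Cyta+DAC against Doxo+Cyta, and for each expressed gene the 3 most similar. INPP5F, MCTS1, RTL1, IPW, MKRN3, PWAR5 and the neighbours were named after their values were seen.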

Additional observations from a re-analysis of the deposited data

How the results depend on the processing

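No paired analysis was possible because the groups share no replicate number. Of the called results of the 5 tested genes, 58 of 60 refits with another setting and 108 of 120 with 1 library left out kept the direction and the side of the threshold. Where a call was lost, the cause was not tested. The count of called genes in Doxo against NT ran from 0 to 1 when 1 library was left out. It was 4 without both libraries that stood apart, where 37.4% of all tested genes were called. In Doxo+Cyta+DAC against NT it was 1 without the filter on low counts and ran from 1 to 3 when 1 library was left out. In Doxo+Cyta against Doxo it was 1 without the filter, 1 with DESeq2, 1 without both libraries that stood apart, and 0 to 1 when 1 library was left out. Reversals concerned differences that were not called. With 1 library left out, SGCE ran from -0.31 to 0.45 in Doxo against NT, from -0.29 to 0.35 in Doxo+Cyta+DAC against NT and from -0.37 to 0.27 in Doxo+Cyta+DAC against Doxo. In Doxo+Cyta against Doxo, MEST ran from -0.0084 to 0.10 and GRB10 from -0.029 to 0.081, and GRB10 was -0.0021 when the fit held no other group. Depth limits SGCE, with 7 to 31 counts, and the 5 genes at or near 0 gave no change. The count of SNRPN is limited by the rule on overlapping genes as well.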
